A study of Mus musculus with 8 samples.

Results

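The genes examined here encode the proteins that start DNA replication at origins and copy DNA at the fork. The rule that chose them reads gene symbols and no signal, but the genes were chosen with earlier results of these data known. The rule took every probe set with a single gene symbol for Mcm2 to Mcm8 and Mcm10, the numbered Orc, Gins, Rfc, Prim, Pola, Pold and Pole genes, Rpa1 to Rpa3, and Cdc6, Cdc7, Cdc45, Cdt1, Gmnn, Dbf4, Pcna, Fen1, Lig1, Rrm1 and Rrm2. It found 107 probe sets of 49 genes, out of 18193 genes with a single-symbol probe set on the array, and the probe set with the highest mean stood for each gene. Because the rule reads the start of a symbol, it also took Mcm3ap, which encodes the messenger RNA export protein GANP and no helicase subunit, and it left out Pole, whose symbol has no number.

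Signals were measured on 8 one-colour oligonucleotide arrays of mouse whole embryos. There were 4 arrays of blastocysts, taken at E4.5 and 120 h from hCG, the hormone used to time ovulation, and 4 arrays of 8-cell embryos, taken at E2.5 and 66 h from it. All embryos were wild type, of the B6D2F1 strain, and had been cultured in KSOM from 1-cell zygotes. Each array held RNA of whole embryos, amplified by a protocol for small samples. Nothing in the labels says whether arrays of 1 stage hold RNA of separately collected embryos. The p-values therefore rest on a spread between samples that may be technical.

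Each time a cell divides, its origins are first marked by the origin recognition complex. CDC6 and CDT1 then load the ring-shaped MCM helicase onto the DNA, a step called licensing that geminin blocks by binding CDT1. The CDC7 and DBF4 kinase, CDC45 and the GINS complex turn the loaded ring into a working helicase, and polymerases, the sliding clamp PCNA and the single-strand binding protein RPA follow it. The egg stores many of these products for the first cleavages, and the embryo later makes its own.

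Each difference is of log2(signal + 16), blastocyst minus 8-cell, given with its standard error (SE). The 16 added shrinks the differences of dim genes. Signals are on the deposited linear scale, as mean ± SD of 4 arrays where not given array by array. A gene was said to rise or fall where limma's adjusted p (Benjamini-Hochberg over all 13274 genes tested) was under 0.05, and adjusted p-values are from this fit unless another test is named. The arrays had been scaled to the same trimmed mean, so rises and falls are relative changes within that scaling. The embryos were read whole, so fewer cells of a type and less RNA per cell cannot be told apart. The number of arrays limits the precision.

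Arrays of the same stage correlated at 0.982 to 0.988 (blastocyst) and 0.977 to 0.981 (8-cell) over the tested genes, and arrays of different stages at 0.752 to 0.780. All 6 trophectoderm markers looked at were higher in blastocysts, with summed signals of 73369 to 82518 on blastocyst arrays and 2997 to 3489 on 8-cell arrays. Of 6 primitive endoderm markers 4 rose and 2 fell (Gata4 -0.95, Gata6 -0.55), and their sums were 17261 to 23372 on blastocyst arrays and 6915 to 10441 on 8-cell arrays. Of 5 epiblast markers 4 rose and 1 fell (Pou5f1 -0.90), and their sums overlapped, at 9139 to 12308 on blastocyst arrays and 9214 to 10046 on 8-cell arrays. The 7 cumulus cell markers found summed to 193 to 254 on blastocyst arrays and 211 to 372 on 8-cell arrays, and 5 of them were too dim to test. Of the other two, Foxl2 fell (-0.47, adjusted p = 0.0335) and Fshr did not pass. The part of these markers in the results was not tested. The 3' minus 5' difference of the control probe sets, a sign of how much of each transcript was copied, was 0.82 ± 0.11 log2 units for Actb in blastocysts and 2.42 ± 0.19 in 8-cell embryos, and 1.36 ± 0.11 and 2.32 ± 0.26 for Gapdh. It moves with every stage difference below, and its part in them was not tested. The 8-cell values carry 1 decimal and nearly all blastocyst values carry more, so a difference in handling between the stages cannot be told apart from the stage.

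The promoters of these genes held one sequence feature more often than promoters at large, among genes that rose and genes that fell. E2F transcription factors bind short GC-rich sites and are known to drive many S phase genes. The letters TTCCCGC and TTGGCGC, cores of such sites whose matches on opposite strands can share bases, were searched on both strands of the RefSeq windows that run from 250 bases before to 50 bases after a gene's start (assembly GRCm38.p6). Of the 49 genes 42 had a window, and 25 of these (59.5%) held a match, against 2105 of 27025 genes with a window (7.79%) and 13.7% of the tested genes. Among all 32851 windows the share was 6.81%. A match was found for 10 of 18 genes that rose, 10 of 15 that fell and 5 of 9 that did not pass, or 55.6%, 66.7% and 55.6%, and the difference between these shares was not tested. A match is a description of the letters and not a shown binding site.

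The 150 bases before the start are printed for the 3 genes that rose and the 3 that fell with the largest differences among those with a match in that stretch, and for Mcm6, which did not pass. They are RefSeq sequence of GRCm38.p6, 5′ to 3′ along the gene, and the capitals mark the matched letters or their reverse complement. All were chosen for holding a match.
Orc3 (chr4:34614943-34615092, minus strand): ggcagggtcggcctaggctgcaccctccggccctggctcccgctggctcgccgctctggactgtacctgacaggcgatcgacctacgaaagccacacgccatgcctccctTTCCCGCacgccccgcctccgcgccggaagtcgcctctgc
Prim1 (chr10:128015065-128015214, plus strand): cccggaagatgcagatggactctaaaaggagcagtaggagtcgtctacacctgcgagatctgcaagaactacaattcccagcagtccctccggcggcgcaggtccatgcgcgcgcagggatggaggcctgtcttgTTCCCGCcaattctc
Rpa3 (chr6:8259142-8259291, minus strand): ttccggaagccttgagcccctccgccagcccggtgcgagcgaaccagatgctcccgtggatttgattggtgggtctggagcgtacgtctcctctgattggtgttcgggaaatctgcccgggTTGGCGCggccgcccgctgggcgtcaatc
Gins3 (chr8:95633409-95633558, plus strand): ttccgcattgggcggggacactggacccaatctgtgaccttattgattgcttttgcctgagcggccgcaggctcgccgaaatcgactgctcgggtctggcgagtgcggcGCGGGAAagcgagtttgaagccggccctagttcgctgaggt
Cdc6 (chr11:98908001-98908150, plus strand): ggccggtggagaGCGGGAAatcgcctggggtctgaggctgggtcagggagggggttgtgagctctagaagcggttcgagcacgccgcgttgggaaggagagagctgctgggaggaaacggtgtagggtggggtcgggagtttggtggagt
Rpa2 (chr4:132768210-132768359, plus strand): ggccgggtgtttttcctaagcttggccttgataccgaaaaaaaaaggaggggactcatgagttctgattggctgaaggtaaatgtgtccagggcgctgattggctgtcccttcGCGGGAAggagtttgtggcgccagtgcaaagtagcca
Mcm6 (chr1:128359706-128359855, minus strand): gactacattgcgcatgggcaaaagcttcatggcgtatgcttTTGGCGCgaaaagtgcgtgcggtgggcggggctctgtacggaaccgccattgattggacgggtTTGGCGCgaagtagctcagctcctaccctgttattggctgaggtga
The match began 40 bases before the start in Orc3, 15 in Prim1, 29 in Rpa3, 41 in Gins3, 138 in Cdc6 and 37 in Rpa2. These are counted from the start that each window was set on. For Orc3 and Cdc6 that start lies inside the gene's listed span (chr4:34566781-34614963 and chr11:98907709-98923942). Mcm6 held a pair of matches, 109 and 46 bases before the start.

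Replication genes did not move as a block between the stages. The 49 genes were all tested and all above the filter on each of the 8 arrays. Of them 22 rose, 17 fell and 10 did not pass, so 79.6% were called, against 71.7% of all tested genes. Rises were 44.9% of the genes against 37.5% of all tested genes, and falls 34.7% against 34.2%, so both shares lay near the background. The median difference was 0.13, against 0.02 for all tested genes, and it was 0.23 without 8-cell array 1, 0.31 with quantile normalization, 0.49 with spike-in scaling and 0.54 without the probe sets of shared-sequence types. Called changes of at least 2-fold were found for 11 genes that rose and 7 that fell, together 36.7% of the genes, against 45.8% of all tested genes (25.4% higher and 20.4% lower). The differences ran from -1.88 to 2.71, and the median size of the difference was 0.77, against 0.90. The arrays of both stages did not overlap for 39 genes, 22 with all blastocyst arrays above and 17 with all below, against 66.8% of the tested genes (35.3% above and 31.5% below). With arrays scaled to their bacterial hybridisation spike-ins, which moves the median of all tested genes by over 0.3, to 0.37, 24 of the 49 genes rose and 8 fell, while 5647 and 2806 of the 13274 tested genes did.

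**Figure D1:**
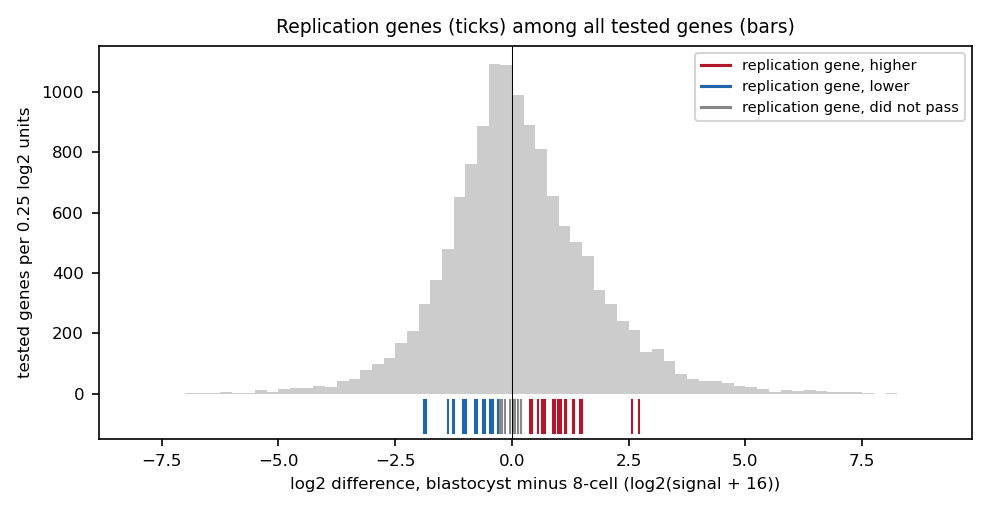
The bars count all 13274 tested genes by their log2 difference, blastocyst minus 8-cell, and the ticks under them mark the 49 replication genes, coloured by their call. The ticks lie on both sides of 0, between -1.88 and 2.71.

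**Figure D2:**
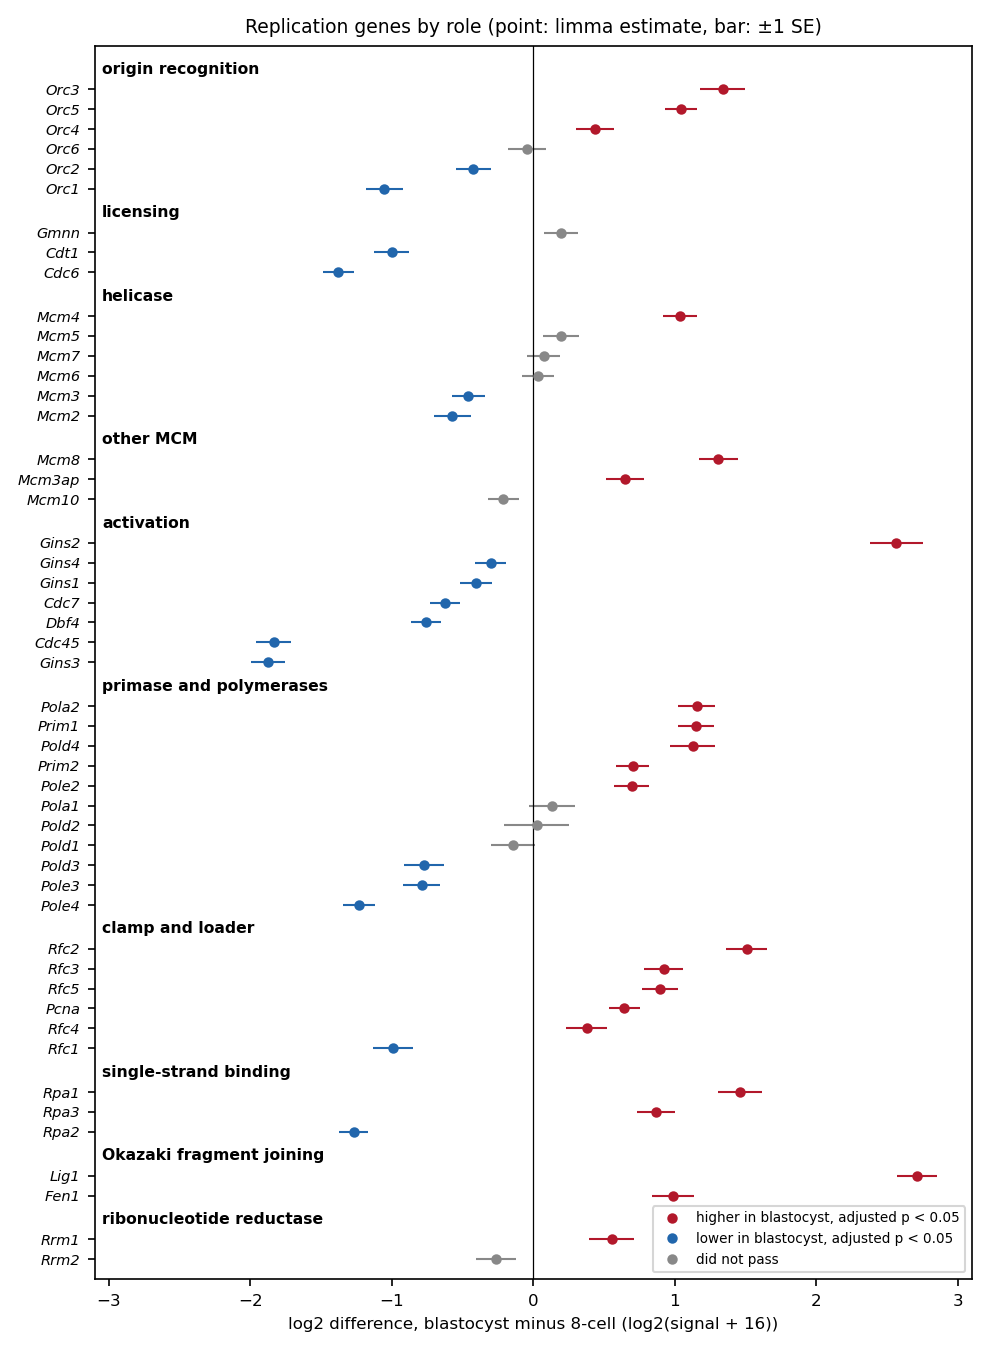
Each point is the log2 difference of a replication gene, blastocyst minus 8-cell, with a bar of 1 SE, grouped by role. Most groups hold genes on both sides of 0. The activation genes lie mostly to the left, apart from Gins2, and the clamp and loader genes mostly to the right, apart from Rfc1.

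The origin recognition complex was split. Orc3, Orc5 and Orc4 rose, Orc1 and Orc2 fell, and Orc6 did not pass. Orc1, the large subunit with ATPase activity, gave 656, 684, 738 and 869 on the blastocyst arrays, against 1621, 1670, 1354 and 1522 on the 8-cell arrays. The stages did not overlap, and Orc1 was 2.07-fold lower in blastocysts (-1.05, SE 0.13, adjusted p = 5.70e-05). Orc3 gave 1981, 1908, 1508 and 1466 on the blastocyst arrays, against 773, 743, 571 and 588 on the 8-cell arrays. Each blastocyst array was above each 8-cell array, by 2.53-fold on average (1.34, SE 0.16, adjusted p = 4.09e-05). The other probe sets of Orc3 (0.57 and 0.43) and of Orc1 (-0.39) did not pass. Orc5 rose by 1.04 (SE 0.11) and Orc4 by 0.43 (SE 0.13, adjusted p = 0.0140), and Orc2 fell by 0.42 (SE 0.12, adjusted p = 0.0102). Orc2 gave -0.07 with spike-in scaling (adjusted p = 0.787), and Orc4 -0.036 when its probe sets were averaged (adjusted p = 0.785). Orc6 differed by -0.05 (adjusted p = 0.777), with a 95% interval of -0.35 to 0.26.

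The factors that load the helicase fell, while their inhibitor did not pass the test. Cdc6, the ATPase that joins the origin complex, gave 3077, 2884, 3348 and 2750 on the blastocyst arrays, against 8201, 7785, 7729 and 7692 on the 8-cell arrays. It was 2.60-fold lower in blastocysts, with no overlap (-1.38, SE 0.11, adjusted p = 2.64e-06). Cdt1, the helicase chaperone, gave 12277, 11495, 11248 and 9911 on the blastocyst arrays, against 22141, 22347, 25820 and 19915 on the 8-cell arrays. It fell by 1.00 (SE 0.13, adjusted p = 6.09e-05), again with no overlap, and its other probe set past the filter gave -1.15. Gmnn, encoding geminin, gave 9309, 8213, 8903 and 9632 on the blastocyst arrays, against 8407, 7758, 8581 and 6819 on the 8-cell arrays. These values overlap (0.19, SE 0.12, adjusted p = 0.175, 95% interval -0.08 to 0.47), and Gmnn passed as higher with quantile normalization (0.39, adjusted p = 0.0115) and with spike-in scaling (0.55, adjusted p = 0.0398).

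**Figure D3:**
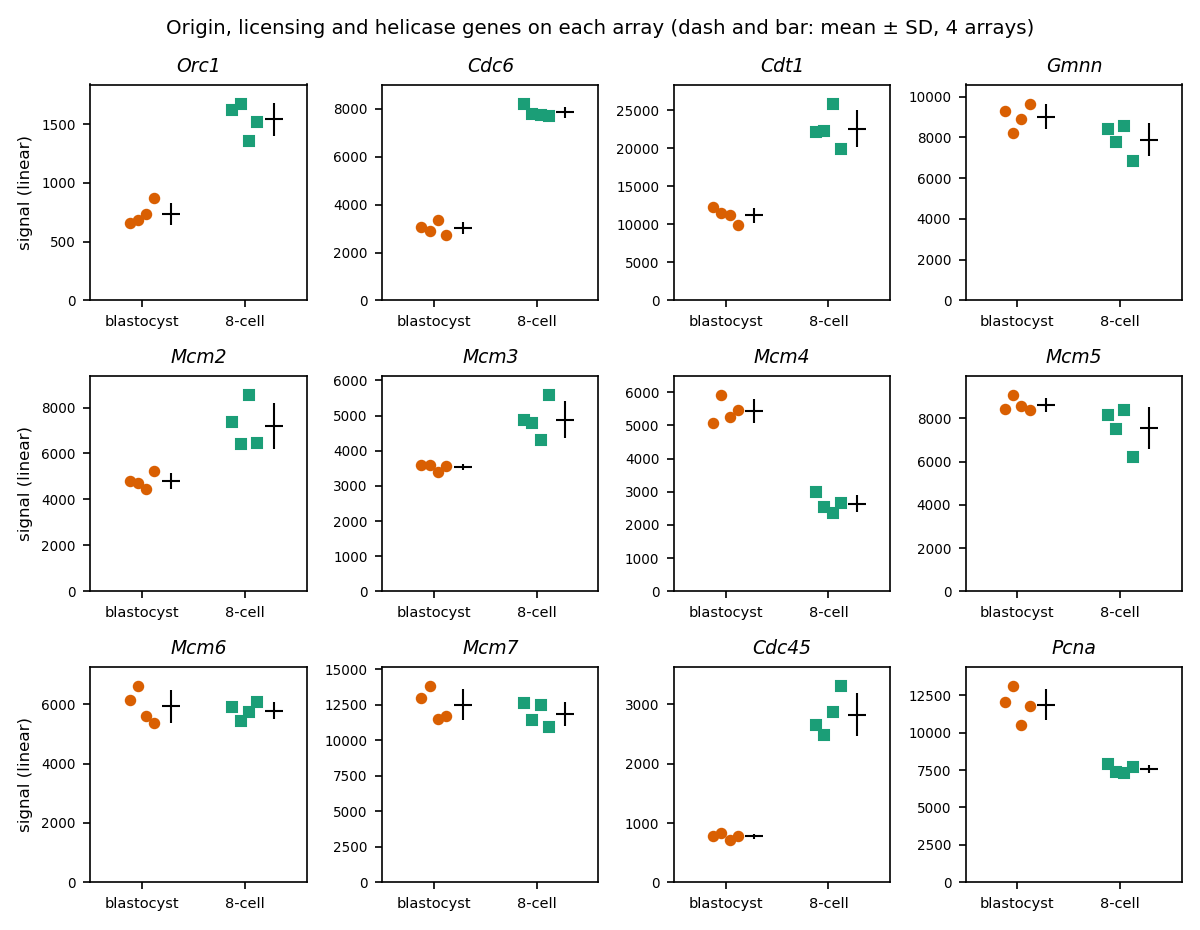
Linear signal of 12 origin, licensing, helicase and fork genes on each array, blastocyst (circles) and 8-cell (squares), with mean ± SD of 4 arrays. Orc1, Cdc6, Cdt1 and Cdc45 lie lower in blastocysts with no overlap, Mcm4 and Pcna lie higher, and Gmnn, Mcm6 and Mcm7 overlap.

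The 6 subunits of the MCM helicase, which form 1 ring with 1 copy of each, did not share a direction. Mcm4 rose, Mcm2 and Mcm3 fell, and Mcm5, Mcm6 and Mcm7 did not pass. Mcm4 gave 5079, 5909, 5255 and 5476 on the blastocyst arrays, against 2996, 2554, 2372 and 2648 on the 8-cell arrays, with no overlap. It was 2.05-fold higher in blastocysts (1.04, SE 0.12, adjusted p = 3.09e-05), but its other probe set gave -0.02 (adjusted p = 0.928 among all probe sets).

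Mcm2 gave 4804, 4721, 4451 and 5241 on the blastocyst arrays, against 7374, 6411, 8539 and 6467 on the 8-cell arrays. Each blastocyst array was below each 8-cell array (-0.57, SE 0.13, adjusted p = 0.00293). Mcm3 gave 3581, 3587, 3395 and 3558 on the blastocyst arrays, against 4861, 4780, 4309 and 5580 on the 8-cell arrays, also with no overlap (-0.46, SE 0.12, adjusted p = 0.00525). Both calls depend on the probe set. The other Mcm2 probe set averaged 5263 in blastocysts and 3914 in 8-cell embryos (0.43, adjusted p = 0.0178 among all probe sets), and among the 4 others of Mcm3 the differences ran from -1.32 to 0.54. With spike-in scaling neither passed (Mcm2 -0.22, Mcm3 -0.11).

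Mcm5 gave 8412, 9066, 8580 and 8370 on the blastocyst arrays, against 8138, 7487, 8364 and 6222 on the 8-cell arrays. All blastocyst values were above, though by little (0.20, SE 0.13, adjusted p = 0.187). Mcm6 gave 6133, 6606, 5607 and 5357 on the blastocyst arrays, against 5895, 5432, 5731 and 6083 on the 8-cell arrays. The stages overlap, and the 95% interval of the difference ran from -0.23 to 0.29 (0.03, adjusted p = 0.822). Mcm7 gave 12973, 13805, 11466 and 11727 on the blastocyst arrays, against 12641, 11398, 12507 and 10927 on the 8-cell arrays. These overlap as well, with an interval of -0.19 to 0.34 (0.07, adjusted p = 0.597). Mcm5 passed as higher with quantile normalization (0.39), with spike-in scaling (0.55), with the mean of its probe sets (0.40) and without the probe sets of shared-sequence types (0.45), and Mcm7 with quantile normalization (0.31). Mcm6 passed as lower with the mean of its probe sets (-0.31, adjusted p = 0.0342). Among all probe sets, the second of Mcm6 fell (-0.46, adjusted p = 0.00747), and a pair of the other Mcm7 probe sets rose (0.63 and 0.62).

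Of the 3 other genes with MCM names 2 rose and 1 did not pass. Mcm8, whose product works with MCM9 in recombination repair, gave 875, 872, 939 and 763 on the blastocyst arrays, against 355, 374, 367 and 267 on the 8-cell arrays. It was 2.47-fold higher in blastocysts with no overlap (1.31, SE 0.14, adjusted p = 1.95e-05). Mcm3ap rose by 0.65 (SE 0.13, adjusted p = 0.00173). Mcm10, a factor that helps to activate the loaded helicase, averaged 5231 ± 241 in blastocysts and 6074 ± 444 in 8-cell embryos and did not pass (-0.21, SE 0.11, adjusted p = 0.108). It passed as lower with the trend and robust options (adjusted p = 0.0407) and as higher without the shared-sequence types, when a dimmer probe set stood for it (1.27, adjusted p = 0.00241).

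Genes for turning the loaded ring into a moving helicase were mostly lower in blastocysts, with 6 of 7 falling and 1 rising, against 34.2% and 37.5% of all tested genes. Cdc45 gave 779, 825, 713 and 788 on the blastocyst arrays, against 2647, 2482, 2867 and 3304 on the 8-cell arrays. No blastocyst value came near the 8-cell values, and the difference was 3.57-fold (-1.84, SE 0.13, adjusted p = 9.46e-07). The GINS complex has 4 subunits in equal number, and their genes ran apart. Gins3 gave 401, 362, 414 and 493 on the blastocyst arrays, against 1548, 1613, 1507 and 1597 on the 8-cell arrays. It had the largest fall of the replication genes, 3.67-fold (-1.88, SE 0.12, adjusted p = 7.04e-07), and its other probe set fell as well (-1.11).

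Gins2 gave 1916, 1552, 1398 and 1098 on the blastocyst arrays, against 261, 250.3, 249.8 and 183 on the 8-cell arrays. It was 5.91-fold higher in blastocysts with no overlap (2.56, SE 0.19, adjusted p = 1.46e-06), and its other probe set gave 3.48. Gins1 fell by 0.41 (SE 0.11, adjusted p = 0.00963) and Gins4 by 0.30 (SE 0.11, adjusted p = 0.0329). Gins4 failed the threshold in 10 of 20 other settings, among them spike-in scaling, which gave 0.052, and Gins1 gave -0.05 with that scaling.

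The kinase pair that fires origins fell together. Dbf4, the regulatory subunit, gave 5007, 5533, 5467 and 5684 on the blastocyst arrays, against 9072, 9361, 8642 and 9637 on the 8-cell arrays. Cdc7, the kinase itself, gave 1270, 1336, 1197 and 1234 on the blastocyst arrays, against 1973, 2042, 1787 and 1995 on the 8-cell arrays. Neither gene overlapped between the stages (Dbf4 -0.76, SE 0.11, adjusted p = 0.000123, and Cdc7 -0.62, SE 0.11, adjusted p = 0.000481). With spike-in scaling both stayed negative without passing (-0.40 and -0.27). The other probe sets were dimmer and did not pass either, at -0.57 for Dbf4 and -0.31 for Cdc7 (adjusted p = 0.0861 and 0.0720 among all probe sets).

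Of 11 primase and polymerase genes 5 rose, 3 fell and 3 did not pass, close to the 37.5% and 34.2% of all tested genes. Prim1 and Prim2, the primase subunits that make the RNA primer, rose by 1.15 (SE 0.13) and 0.70 (SE 0.12), and Pola2, an accessory subunit of polymerase alpha, by 1.16 (SE 0.13). The other Prim2 probe set past the filter gave 0.40 and did not pass (adjusted p = 0.158 among all probe sets). The other Pola2 probe sets gave 0.39 and -0.23 and did not pass. The catalytic Pola1 averaged 1333 ± 69.1 in blastocysts and 1236 ± 276 in 8-cell embryos and did not pass (0.13, adjusted p = 0.486). Of polymerase delta, the lagging strand enzyme, the small subunit gene Pold4 rose by 1.12 (SE 0.16) and Pold3 fell by 0.77 (SE 0.14). Its catalytic gene Pold1 (-0.14, 95% interval -0.49 to 0.21) and Pold2 (0.02, -0.49 to 0.54) did not pass.

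Of polymerase epsilon, the leading strand enzyme, Pole2 rose by 0.69 (SE 0.12), while the histone-fold subunits Pole3 and Pole4 fell. When its probe sets were averaged, Pole2 had 0.22 and did not pass (adjusted p = 0.195). Pole4 gave 1008, 894, 937 and 904 on the blastocyst arrays, against 2151, 2467, 2040 and 2227 on the 8-cell arrays. That is 2.35-fold lower in blastocysts with no overlap (-1.23, SE 0.11, adjusted p = 6.37e-06), and Pole3 fell by 0.79 (SE 0.13). Both Pole3 and Pole4 had further probe sets that fell, and the catalytic gene Pole, outside the rule, rose by 0.55 (SE 0.11). Pole3 gave -0.44 and Pold3 -0.42 with spike-in scaling, neither passing.

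The sliding clamp and 4 of the 5 clamp loader genes rose, against 37.5% of all tested genes, and 1 of the 4, Rfc4, passed narrowly. Pcna gave 12062, 13096, 10524 and 11785 on the blastocyst arrays, against 7918, 7360, 7304 and 7710 on the 8-cell arrays. All blastocyst values were above the 8-cell values (0.64, SE 0.11, adjusted p = 0.000567). Rfc2, a small loader subunit, gave 2263, 2063, 2626 and 2474 on the blastocyst arrays, against 682, 976, 862 and 771 on the 8-cell arrays. It was 2.84-fold higher in blastocysts with no overlap (1.51, SE 0.14, adjusted p = 9.11e-06).

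Rfc3 and Rfc5 rose by 0.92 (SE 0.14) and 0.90 (SE 0.13). The other Rfc3 probe set gave 0.35 and did not pass (adjusted p = 0.286 among all probe sets). Rfc4 rose by 0.38 with overlapping stages (SE 0.15, adjusted p = 0.0421) and lost the call in 7 of 20 other settings. Rfc1, the large subunit, went the other way and fell by 0.99 (SE 0.14, adjusted p = 0.000146), with both of its other probe sets lower too (-1.14 and -2.58).

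RPA, the trimer that coats single-stranded DNA, was split as well. Rpa1, the large subunit, gave 12466, 12509, 11250 and 11401 on the blastocyst arrays, against 4820, 4932, 4533 and 3190 on the 8-cell arrays. It was 2.75-fold higher in blastocysts with no overlap (1.46, SE 0.16, adjusted p = 1.94e-05). Rpa2, the middle subunit, gave 1888, 1771, 1739 and 1688 on the blastocyst arrays, against 4266, 4327, 4042 and 4561 on the 8-cell arrays. It was 2.41-fold lower (-1.27, SE 0.10, adjusted p = 3.28e-06), although its second probe set gave -0.02 (adjusted p = 0.909 among all probe sets). Rpa3, the small subunit, rose by 0.87 (SE 0.13).

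The genes that finish lagging strand fragments rose. Lig1, DNA ligase I, had the largest rise of the replication genes. It gave 7432, 8111, 7309 and 6159 on the blastocyst arrays, against 1185, 1231, 904 and 1064 on the 8-cell arrays. The difference was 6.55-fold, with no overlap (2.71, SE 0.14, adjusted p = 2.02e-07). Fen1, the flap nuclease that trims the fragment before ligation, averaged 8944 ± 656 in blastocysts and 4558 ± 824 in 8-cell embryos (0.98, SE 0.15, adjusted p = 0.000205), and its other probe set also rose (0.82).

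Ribonucleotide reductase makes the deoxynucleotides for synthesis from a large and a small subunit. Rrm1, the large subunit, gave 8843, 9804, 8028 and 8307 on the blastocyst arrays, against 4843, 6050, 5423 and 7847 on the 8-cell arrays. The stages did not overlap, although one 8-cell array came close (0.55, SE 0.16, adjusted p = 0.0119). Rrm2, the small subunit, gave 10795, 11809, 9971 and 11082 on the blastocyst arrays, against 13196, 13038, 15884 and 10784 on the 8-cell arrays. These overlap (-0.27, SE 0.14, adjusted p = 0.113), and the other Rrm2 probe sets gave -1.16 (adjusted p = 8.03e-05 among all probe sets) and 0.17. Rrm2 passed as lower with the mean of its probe sets (-0.42), without the shared-sequence types (-1.16), with the trend and robust options (adjusted p = 0.0343) and without 8-cell array 4 (-0.36), and it gave 0.088 with spike-in scaling (adjusted p = 0.730).

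Ratios within an array were compared for 6 partner pairs, which were chosen with earlier results of these data known. The test was an exact two-sided permutation test over the 70 assignments of 4 against 4 arrays, with p-values adjusted over these 6 pairs only. The smallest p this design can give is 0.0286, and 5 pairs reached it (adjusted p = 0.0343 each by the exact test). How often pairs of other genes would reach it was not counted. The stages did not overlap for 66.8% of single tested genes, so the count is not shown to be particular to partners. Leaving out any 1 blastocyst array took these 5 partner pairs to an adjusted p of 0.0571 by the exact test. Leaving out any 1 8-cell array cost only the Cdc6 to Orc1 ratio its call. Relative to Gmnn, Cdt1 was lower in blastocysts, with a mean log2 ratio of 0.32 ± 0.19 in blastocysts and 1.51 ± 0.08 in 8-cell embryos, a difference of -1.20 shown by 4 of 4 blastocyst arrays. Relative to Rrm1, Rrm2 was lower by 0.82 (0.32 ± 0.07 in blastocysts and 1.14 ± 0.49 in 8-cell embryos). Relative to Pola1, Pola2 was higher by 1.02 (-0.37 ± 0.14 in blastocysts and -1.39 ± 0.41 in 8-cell embryos).

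The Prim2 to Prim1 ratio differed by -0.45 (-1.62 ± 0.06 in blastocysts and -1.17 ± 0.18 in 8-cell embryos), and the Cdc6 to Orc1 ratio by -0.33 (2.01 ± 0.25 and 2.34 ± 0.12). The Cdc6 to Orc1 ratio lost the call with 1 added in place of 16 (adjusted p = 0.0686, exact test) and without any 1 array of either stage, and its difference was -0.20 without blastocyst array 4. The Dbf4 to Cdc7 ratio did not pass, at 2.09 ± 0.11 in blastocysts and 2.23 ± 0.04 in 8-cell embryos (difference -0.13, exact permutation p = 0.0571). The ratios show unequal change of the probe sets of a pair and no amounts of protein.

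**Figure D4:**
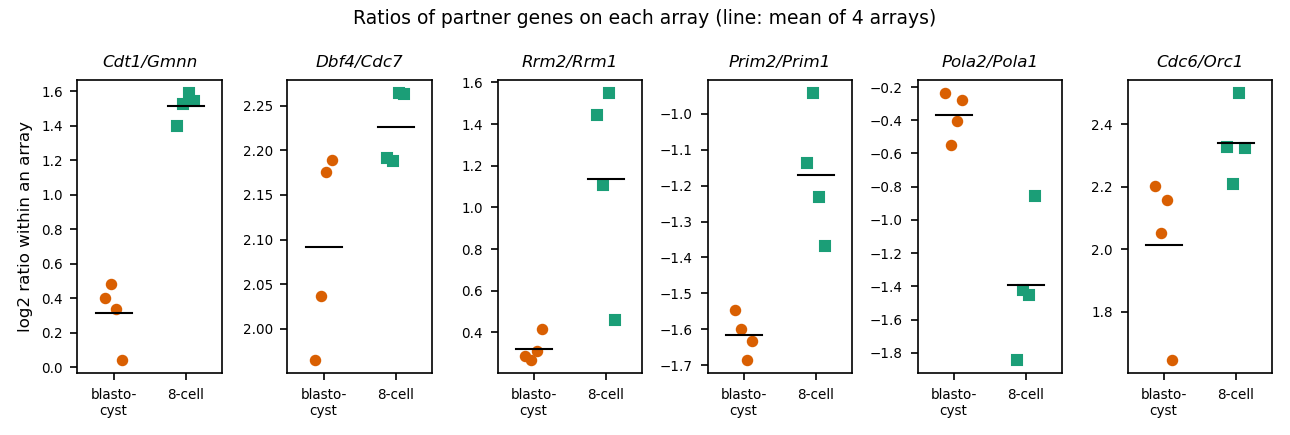
Log2 ratio of the signals of 2 partner genes within each array, blastocyst (circles) and 8-cell (squares), with the mean of 4 arrays as a line. Each panel has its own axis. The stages separate for every pair except Dbf4/Cdc7, and the gap is widest for Cdt1/Gmnn.

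Different probe sets of a gene did not always move alike. At least 2 probe sets were past the filter for 34 of the 49 genes, and 4 genes (Mcm2, Mcm3, Mcm10 and Orc4) had probe sets called in both directions. That is 11.8%, against 11.4% of 6004 tested genes with several. Orc4 had 3 probe sets that rose (0.43 to 0.88) and a dim one that fell (-2.08). Pold3 fell by 0.77 on the probe set used and had differences of -2.81 and -2.61 on the others. Of the 34 genes, all probe sets were called higher for 6 (Fen1, Gins2, Prim1, Rfc2, Rpa1 and Rrm1). All were called lower for 8 (Cdc45, Cdt1, Gins1, Gins3, Pold3, Pole3, Pole4 and Rfc1). Among the 6004 tested genes with several, 1233 had all probe sets called higher and 1133 all lower, so these shares lay near the background. If only genes are counted whose probe sets past the filter were all called the same way, a choice made after seeing the data, 15 rose and 9 fell. That count takes in genes with only 1 probe set past the filter, for which agreement could not be checked. Among the 34 genes with at least 2 it is the 6 and 8 named above.

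**Figure D5:**
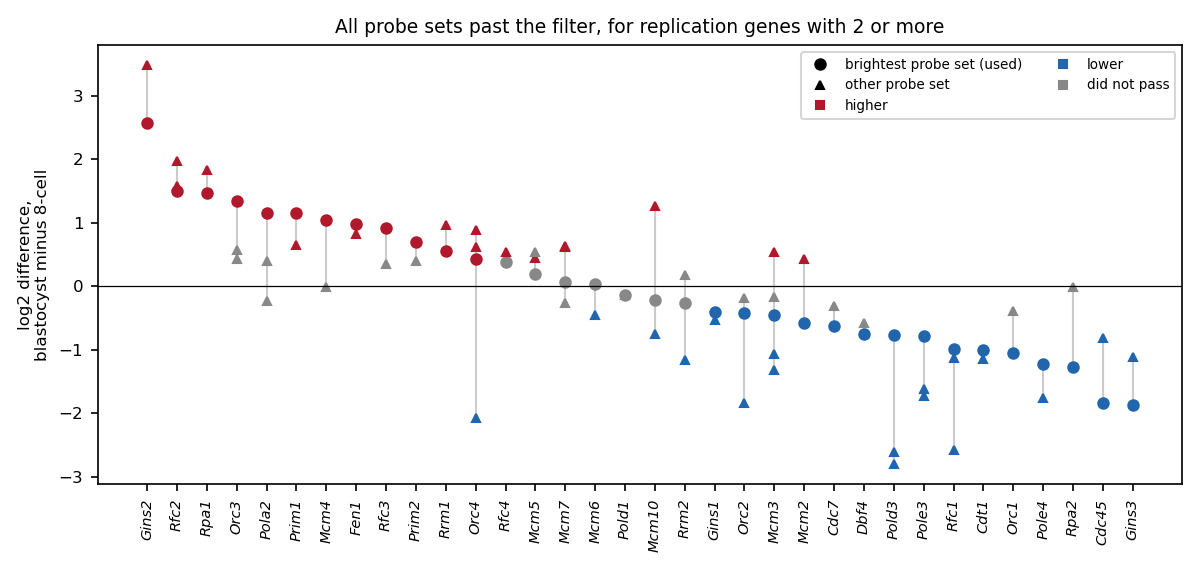
Log2 difference, blastocyst minus 8-cell, for each probe set past the filter for the 34 replication genes with at least 2, ordered by the brightest probe set (circles), with the others as triangles. Colours give the call in the fit over all probe sets, in which Rfc4's brightest did not pass. Mcm2, Mcm3, Mcm10 and Orc4 have called probe sets on both sides of 0.

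Genes of the same pathway outside the rule were read from the same fit in 6 lists, chosen by known function. Of 72 such genes tested, 24 rose, 35 fell and 13 did not pass, with a median of -0.27, against 37.5% and 34.2% called higher and lower among all tested genes. Of 18 genes of E2F factors and G1/S control 5 rose and 9 fell. The largest differences were those of E2f8, an E2F that represses its targets (3.03, SE 0.32, 1279 ± 478 in blastocysts and 134 ± 33.0 in 8-cell embryos), Ccne1, the cyclin E1 gene (-3.01, SE 0.15, 1623 ± 252 and 13182 ± 1950), and Rbl1, encoding the pocket protein p107 (2.51, SE 0.12). E2f1, an activating E2F, fell by 0.65 (SE 0.17), and E2f3 rose by 2.15 (SE 0.15), both named after their values were seen.

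Among 8 genes for the ubiquitin ligases that act on licensing factors, 2 rose and 5 fell. Skp2, a substrate receptor of the SCF ligase, fell by 2.18 (SE 0.14). Cul4b, a cullin scaffold, rose by 1.98 (SE 0.19), and Dtl, the CUL4 ligase receptor that targets CDT1 during S phase, fell by 1.45 (SE 0.12). Of 23 further fork and firing factors 8 rose and 11 fell. Rif1, which acts on replication timing, fell by 1.96 (SE 0.14), and the firing factor genes Mtbp and Donson rose by 1.95 (SE 0.20) and 1.53 (SE 0.20).

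Of 6 chromatin assembly genes tested 2 rose and 3 fell. The histone chaperone gene Asf1b rose by 1.25 (SE 0.14), and the chaperone gene Nasp and the remodeller gene Hells fell by 1.03 (SE 0.15) and 0.90 (SE 0.16), neither with every choice of probe sets (Nasp gave 0.38 without the shared-sequence types, Hells 0.07 with the mean). Of 10 nucleotide supply genes 5 rose and 4 fell, led by Samhd1, which breaks down deoxynucleotides (-1.66, SE 0.23), Cmpk1, a nucleotide kinase (1.33, SE 0.11), and Dctpp1, a dCTP hydrolase (0.91, SE 0.12). Of 7 S phase checkpoint genes 2 rose and 3 fell. They were led by the kinase gene Atr (1.06, SE 0.13) and the checkpoint clamp genes Rad1 (-1.05, SE 0.12) and Rad9a (0.89, SE 0.21).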

How the data were processed

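The authors deposited linear signal intensity values of 45101 probe sets on each of 8 one-colour arrays. Per the labels' protocols, RNA from few cells was amplified and biotin-labelled. Which software made the signals was not given in the sources used here. Each array's mean is 500.0 once the outer 2% of values are removed. No build is named. In the platform annotation, 34945 probe sets carry 1 symbol, 932 carry several and 9160 are absent. The 64 control probe sets stayed out of the tests. Gene IDs were looked up in RefSeq gene names of assembly GRCm38.p6, which changed 0 symbols.

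Titles gave each sample's stage. Values became log2(signal + 16), and the deposited scale was kept because array medians differed by less than 0.5. One probe set per gene (highest mean) was tested if above the array's 40th percentile on at least 4 of 8 arrays. The test was limma (lmFit, eBayes, no covariates) with Benjamini-Hochberg adjustment over all 13274 tested genes and a threshold of 0.05. A second fit covered all 28227 probe sets past the filter. Array-by-array values are given for 6 called genes at either end of the differences and for 16 fixed ones. From each of the 6 other lists the 3 called genes with the largest differences were named. The genes, lists and tests were chosen with earlier results of these data known. Shared-sequence probe sets have the ID endings _x_at, _s_at and _a_at. The alternatives were 3 other scalings, 2 other filters, 2 other probe set choices, array weights, a replicate block, eBayes with trend and robust options, 1 or 64 added in place of 16, membership without Mcm3ap or with Pole, and leaving out each array.

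The fit was tested on simulated data. R 4.3.3, limma 3.58.1, Python 3.11.15, pandas 2.3.3 and matplotlib 3.10.9 were used.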

Additional observations from a re-analysis of the deposited data

Results flagged for a closer look

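Among the 98 sets of 4 arrays (49 genes at both stages), 4 held a value that stood far from the other 3 by Dixon's gap test at its 95% level, and chance alone flags about 5% of such sets. Gins2 gave 183 on 8-cell array 4, against 249.8 to 261 on the others of that stage. Mcm8 gave 267 on the same array, against 355 to 374. Mcm3 gave 3395 on blastocyst array 3, against 3558 to 3587. Pole2 gave 3494 on blastocyst array 2, against 2925 to 2954. Leaving out any single array changed the call of none of these 4 genes.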

How the results depend on the processing

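The counts of replication genes that rose and fell, 22 and 17, ran from 21 to 22 and from 16 to 17 when each array was left out, while those of all genes ran from 4783 to 4880 and from 4331 to 4507. Spike-in scaling left 8 falls among the replication genes and 2806 among all genes (4539 otherwise), with 5647 rises against 4978. That scaling moved the median of all tested genes to 0.37, against 0.02 without it, and the spike-ins' mean log2 signal itself ran from 10.95 to 11.36 over blastocyst arrays and from 11.23 to 11.89 over 8-cell arrays. Counting only genes whose probe sets agreed, with genes of 1 probe set past the filter included, left 9 falls. The median difference of the replication genes, 0.13, was 0.31 with quantile normalization, 0.19 with median scaling, 0.49 with spike-in scaling, 0.54 without the shared-sequence probe sets (45 genes tested) and 0.10 to 0.23 with an array left out. Signs turned for single genes. With spike-in scaling Gins4 gave 0.052, Mcm10 0.14, Orc6 0.31, Pold1 0.21 and Rrm2 0.088. When probe sets were averaged, Mcm10 gave 0.10, Mcm6 -0.31, Orc4 -0.036, Pola1 -0.040 and Hells 0.065. Without the shared-sequence probe sets Mcm10 gave 1.27, Mcm2 0.43, Mcm3 0.54 and Nasp 0.38. With quantile normalization Orc6 gave 0.0057, Pola1 -0.012 and Pold2 -0.11, and with median scaling Orc6 gave 0.014. With an array left out Mcm6 ran from -0.023 to 0.078, Orc6 ran from -0.11 to 0.017 and Pold2 ran from -0.12 to 0.19. The cause of these changes was not tested. Same-numbered arrays of the 2 stages did not deviate together (r = -0.04 to -0.02 over the 4 numbers). A weak shared effect of the number could be missed by such a check. A replicate block gave 22 rises and 16 falls and Gins4 lost its call (adjusted p = 0.0735). With the numbers paired, the partner ratios had the same differences (Cdt1/Gmnn -1.20, Rrm2/Rrm1 -0.82, Prim2/Prim1 -0.45, Pola2/Pola1 1.02, Cdc6/Orc1 -0.33), and an exact sign-flip test of 4 pairs cannot go below p = 0.125. With an array left out the ratios ran from -1.25 to -1.11 for Cdt1/Gmnn, -1.04 to -0.68 for Rrm2/Rrm1, -0.51 to -0.37 for Prim2/Prim1, 0.87 to 1.20 for Pola2/Pola1, -0.39 to -0.20 for Cdc6/Orc1 and -0.17 to -0.09 for Dbf4/Cdc7, with adjusted p up to 0.0571 for the first 4 pairs and 0.137 for Cdc6/Orc1 (exact permutation test). The first 4 pairs lost the call with any 1 blastocyst array left out. They kept it with any 1 8-cell array left out (lowest adjusted p = 0.0429, exact permutation test). The cause of this was not tested. With 1 added Cdc6/Orc1 gave -0.32, and with 64 added Dbf4/Cdc7 gave -0.15 and passed. Probe positions along the transcripts were not used here.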
